A study of Saccharomyces cerevisiae with 4 samples.

Results

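Meiotic strand exchange is the step of recombination in which a broken chromosome end pairs with, and invades, the homologous chromosome. The 9 genes described here encode the meiotic recombinase Dmc1 (*DMC1*), its assembly factors (*MEI5*, *SAE3*), the heterodimer that helps it capture homologous duplex DNA (*HOP2*, *MND1*), the recombination mediator Rad52 (*RAD52*), the DNA translocases *RAD54* and *RDH54*, and the meiosis-specific recombination regulator *HED1*. They were chosen by name. Of the 6549 entries in each file, 8 carried one of these symbols, and the 9th gene, *HED1*, stood under its systematic name YDR014W-A alone and was matched through the S288C gene table (assembly R64).

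Ribosome footprints (FP) and mRNA were each measured once in *dbp1Δ::kanMX6* cells, whose *DBP1* ORF is replaced by a G418-resistance cassette, and once in wild-type cells. Both were SK1 budding yeast, a background that sporulates efficiently, collected after 4 h in sporulation medium following a 1 min cycloheximide treatment. The diploid strains that the study lists all carry *trp1::hisG*, *ura3*, *lys2* and *ho::LYS2*, and those with the cassette are homozygous for it. They differ among themselves at *LEU2* and *HIS3*. Some, both wild-type and *dbp1Δ::kanMX6*, also carry an epitope-tagged allele of *DED1*, the paralog of *DBP1*. Which of the listed strains was profiled is not given in the sources used here. The comparison asks how the cassette deletion changes mRNA abundance and translation in meiotic cells. With 1 library per genotype and assay there was no test between genotypes, and all intervals are 95% intervals for counting error only, from read numbers inferred from the RPKM values (reads divided by ORF length and by library depth).

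The inferred depth was 2220000 to 4775000 reads per library. *DBP1* footprints were 6.9 RPKM in *dbp1Δ::kanMX6* cells and 435.2 RPKM in wild type, as the labels require. The adjacent gene *MRP51*, which encodes a mitochondrial ribosomal protein, had 5.6 RPKM of footprints in the mutant and 47.0 RPKM in wild type, and mRNA of 173.8 RPKM in the mutant and 96.8 RPKM in wild type, so the mutant differs from wild type in the expression of both genes. The genotypes also differed in markers of meiotic stage. Of 10 middle meiotic genes, 8 had at least 2-fold lower footprints in *dbp1Δ::kanMX6* cells and 0 had higher footprints. Their summed levels were 5372.3 RPKM in the mutant and 11895.9 RPKM in wild type, of which *SPS4* alone gave 3098.4 and 5871.2 RPKM. Among all entries 8.23% had at least 2-fold lower footprints. All 5 late sporulation genes had at least 2-fold lower footprints, whereas the 8 early meiotic genes were near the median entry, with a median log2 footprint change of 0.41 against 0.35 for all entries and 6 of 8 above the median entry. The vegetative markers *CLN1*, *CLN2* and *PCL1* were at most 12.4 RPKM for footprints and 14.4 RPKM for mRNA in any library. The part of meiotic stage in the values below was not tested.

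In yeast, programmed double-strand breaks made during meiotic prophase are resected to single-stranded DNA on which Dmc1, a meiosis-specific recombinase of the RecA family, assembles into filaments. Dmc1 carries out most strand exchange with the homolog, and its accessory factors help it to load and to find homologous DNA. *DMC1*, *MEI5*, *SAE3*, *HOP2*, *MND1* and *HED1* are expressed in meiosis, whereas *RAD52*, *RAD54* and *RDH54* also serve mitotic DNA repair.

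*DMC1* (YER179W, chromosome V) was the most abundant of the 9 in every library. Its footprints were 2213.4 RPKM in *dbp1Δ::kanMX6* cells and 1776.1 RPKM in wild type, and its mRNA was 2487 RPKM in *dbp1Δ::kanMX6* cells and 2037.6 RPKM in wild type. In wild type these values were higher than 98.3% of entries for footprints and 98.9% for mRNA, counting the entries whose RPKM averaged 10 or more across libraries. The mutant had 1.25-fold the footprints (1.21 to 1.29) and 1.22-fold the mRNA (1.18 to 1.26) of wild type. The median entry was itself higher in the mutant, by 1.27-fold for footprints and by 1.29-fold for mRNA, so *DMC1* lay slightly below it for both, at the 48.3th and 44.6th percentiles of change.

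The Dmc1 assembly factors Mei5 and Sae3 form a heterodimer. *MEI5* (YPL121C, chromosome XVI) had 564.1 RPKM of footprints in *dbp1Δ::kanMX6* cells and 465.1 RPKM in wild type. Its mRNA was 821.5 RPKM in the mutant and 635.5 RPKM in wild type. Both changes were close to those of the median entry, at 1.21-fold for footprints (1.12 to 1.31) and 1.29-fold for mRNA (1.20 to 1.39). *MEI5* lies on the same chromosome as *DBP1*, and in the gene table *VPS30* and YPL119C-A are the 2 genes between them.

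*SAE3* (YHR079C-A, chromosome VIII) had 1104.6 RPKM of footprints in *dbp1Δ::kanMX6* cells and 988.9 RPKM in wild type. Its mRNA was 977.2 RPKM in the mutant and 532.7 RPKM in wild type. The mRNA difference, 1.83-fold (1.65 to 2.04), was the largest among the 9 genes, whereas footprints were only 1.12-fold higher (1.04 to 1.20). Unlike its partner, *SAE3* therefore combined an mRNA change at the 78.9th percentile with a footprint change at the 38.5th percentile.

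Hop2 and Mnd1 form a heterodimer that stimulates homology capture by Dmc1. *HOP2* (YGL033W, chromosome VII) had 590.1 RPKM of footprints in *dbp1Δ::kanMX6* cells and 485.6 RPKM in wild type, against mRNA of 744.7 RPKM in the mutant and 412.8 RPKM in wild type. *MND1* (YGL183C, also on chromosome VII) had 1001.2 RPKM of footprints in *dbp1Δ::kanMX6* cells and 717.8 RPKM in wild type, against mRNA of 945.6 RPKM in the mutant and 537.2 RPKM in wild type. The mRNA of both was higher in the mutant by nearly the same factor, 1.80-fold for *HOP2* (1.66 to 1.96) and 1.76-fold for *MND1* (1.63 to 1.90). Footprints were 1.22-fold higher for *HOP2* (1.13 to 1.31) and 1.39-fold higher for *MND1* (1.32 to 1.48), so in each the footprint change was smaller than the mRNA change.

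*RAD52* (YML032C, chromosome XIII) encodes a protein that acts on single-stranded DNA coated with replication protein A and anneals complementary strands. It had 292.9 RPKM of footprints in *dbp1Δ::kanMX6* cells and 180.5 RPKM in wild type, and mRNA of 224.2 RPKM in the mutant and 152.2 RPKM in wild type. Its footprints were 1.62-fold higher (1.50 to 1.76) and its mRNA 1.47-fold higher (1.33 to 1.64). Both changes were above those of the median entry, by 1.28-fold and 1.14-fold.

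The Swi2/Snf2-family translocases Rad54 and Rdh54 act on duplex DNA during strand exchange, and were the least abundant of the 9. *RAD54* (YGL163C, chromosome VII) had 71.8 RPKM of footprints in *dbp1Δ::kanMX6* cells and 58.6 RPKM in wild type, and mRNA of 83.0 RPKM in the mutant and 60.6 RPKM in wild type. These were changes of 1.23-fold (1.10 to 1.37) and 1.37-fold (1.21 to 1.55), close to the median entry. *RDH54* (YBR073W, chromosome II) had 46.8 RPKM of footprints in *dbp1Δ::kanMX6* cells and 18.9 RPKM in wild type, an inferred 439 and 223 reads. Its mRNA was 47.3 RPKM in the mutant and 26.7 RPKM in wild type, an inferred 650 and 171 reads. Footprints of *RDH54* were 2.48-fold higher (2.10 to 2.92), the largest footprint change among the 9 and larger than 93.1% of entries, and its mRNA was 1.77-fold higher (1.49 to 2.11). Relative to the median entry the footprint difference was 1.95-fold.

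*HED1* (YDR014W-A, chromosome IV) encodes a meiosis-specific regulator of recombination. It had 1491.3 RPKM of footprints in *dbp1Δ::kanMX6* cells and 1349.8 RPKM in wild type, second only to *DMC1* among the 9. Its mRNA was 937.2 RPKM in the mutant and 591.2 RPKM in wild type. The mutant had 1.59-fold the mRNA of wild type (1.45 to 1.73) but 1.10-fold the footprints (1.05 to 1.17), the smallest footprint change of the 9.

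**Figure D1:**
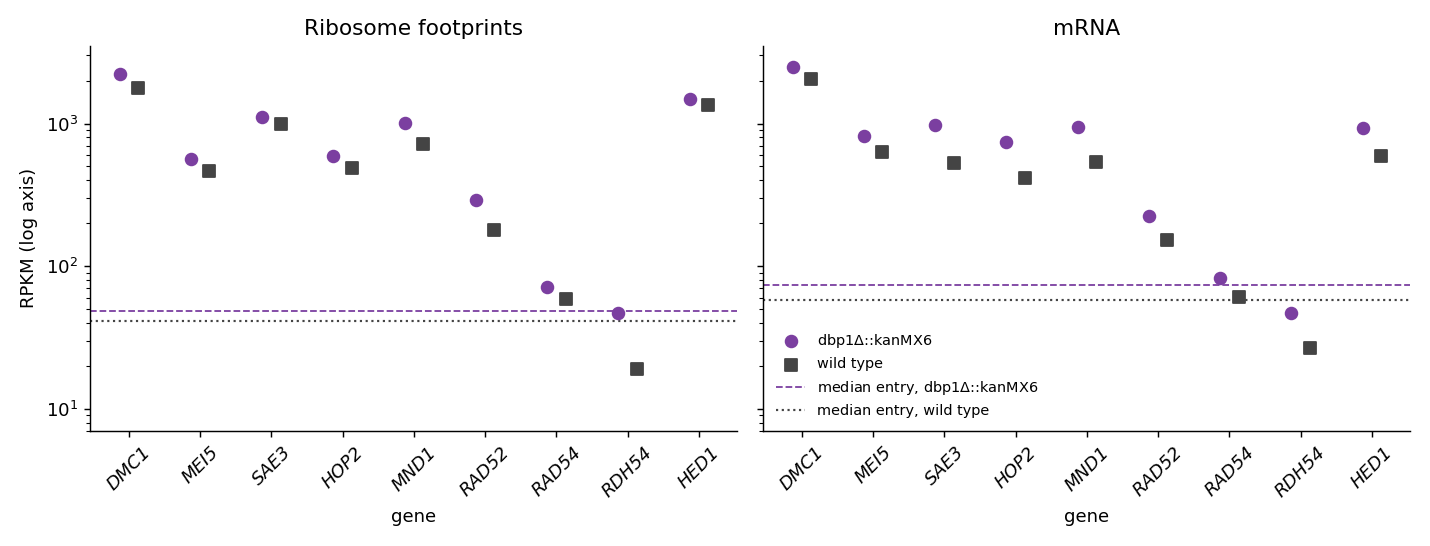
Footprint (left) and mRNA (right) RPKM of each gene on a log axis, with *dbp1Δ::kanMX6* as circles and wild type as squares, 1 library each, and dashed and dotted lines at the median entry of each library. All 9 genes were higher in *dbp1Δ::kanMX6* cells in both assays, as were 68.7% of all entries for footprints and 71.3% for mRNA. Footprint levels ran from *DMC1* at 2213.4 RPKM in the mutant to *RDH54* at 18.9 RPKM in wild type.

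The levels spanned 47.3-fold for footprints in *dbp1Δ::kanMX6* cells and 94.0-fold in wild type, per length. For footprints the order was the same in both genotypes, namely *DMC1*, *HED1*, *SAE3*, *MND1*, *HOP2*, *MEI5*, *RAD52*, *RAD54* and *RDH54*. Within it only *HOP2* and *MEI5* did not differ beyond counting error, with ratios of 1.05 (0.970 to 1.13) in *dbp1Δ::kanMX6* cells and 1.04 (0.970 to 1.12) in wild type. The 6 genes made in meiosis were the top 6 in all 4 libraries, and *RAD52*, *RAD54* and *RDH54* followed in that order. For mRNA the middle of the order depended on the genotype. In *dbp1Δ::kanMX6* cells *SAE3*, *MND1* and *HED1* came after *DMC1*, with neighbors within counting error of each other. In wild type *MEI5* came second, and *MEI5*, *HED1*, *MND1* and *SAE3* were each within counting error of the next. *DMC1*, *SAE3*, *HOP2* and *MND1* contain introns, and the ORF length by which their reads were divided is not stated, so small differences in level between genes rest on that length.

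Translation efficiency (TE) is FP RPKM divided by mRNA RPKM. In wild type TE ranged from 0.708 for *RDH54* to 2.28 for *HED1*, against a median of 0.743 over all entries. *HED1* and *SAE3* (1.86) were higher than 97.0% and 93.5% of entries. *MND1* followed at 1.34, *RAD52* at 1.19, *HOP2* at 1.18, *RAD54* at 0.967, *DMC1* at 0.872 and *MEI5* at 0.732. *DMC1*, the gene with the most mRNA, thus had a TE near the middle of the genome, at the 60.0th percentile.

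In *dbp1Δ::kanMX6* cells TE ranged from 0.687 for *MEI5* to 1.59 for *HED1*, a 2.32-fold span compared with 3.23-fold in wild type. TE of *SAE3* was 1.13 in the mutant and 1.86 in wild type, a 1.64-fold lower value (ratio to wild type 0.609, interval 0.535 to 0.693). *HOP2* had 0.792 in the mutant and 1.18 in wild type (ratio 0.674, 0.604 to 0.751), *HED1* had 1.59 in the mutant and 2.28 in wild type (0.697, 0.628 to 0.773) and *MND1* had 1.06 in the mutant and 1.34 in wild type (0.792, 0.721 to 0.870). For these 4 genes the interval lay wholly below 1. It included 1 for *DMC1* (1.02, 0.976 to 1.07), *MEI5* (0.938, 0.842 to 1.05), *RAD52* (1.10, 0.967 to 1.26) and *RAD54* (0.895, 0.761 to 1.05). Only *RDH54* had a TE interval above 1, with 0.989 in the mutant and 0.708 in wild type (1.40, 1.11 to 1.76).

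**Figure D2:**
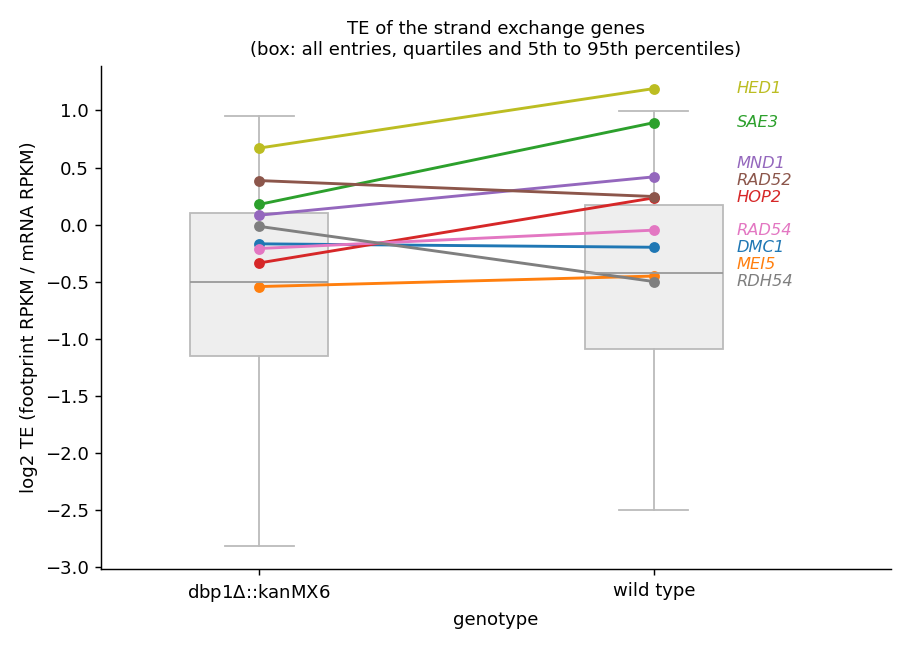
Log2 TE of each gene in *dbp1Δ::kanMX6* (left) and wild-type cells (right), 1 line per gene, over grey boxes that give the quartiles, and whiskers the 5th and 95th percentiles, of the 5452 entries with all 3 changes. *HED1*, *SAE3*, *HOP2* and *MND1* slope up toward wild type, while *RDH54* slopes down, with a TE of 0.989 in the mutant and 0.708 in wild type.

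The genes with lower TE had short ORFs, and across the genome TE change varied with ORF length. The median TE ratio was 0.856 for 607 entries under 500 bp, 0.920 for 1432 entries of 500 to 1000 bp, 0.964 for 2065 entries of 1000 to 2000 bp and 1.01 for 1194 longer entries. *SAE3* and *HED1*, under 500 bp in the gene table, and *HOP2* and *MND1*, of 500 to 1000 bp, each had a lower ratio than the median of their length range. *MEI5*, also of 500 to 1000 bp, had a ratio of 0.938, above that median. The part of ORF length in these values was not tested.

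On the deposited scale all 9 genes were higher in *dbp1Δ::kanMX6* cells in both assays, and so were 68.7% of all entries for footprints and 71.3% for mRNA. At least 2-fold higher footprints were found for 1 of the 9, *RDH54*, against 15.1% of all entries, and 0 were at least 2-fold lower, against 8.23%. For mRNA 0 of the 9 were at least 2-fold higher, against 16.6% of entries, and 0 were at least 2-fold lower, against 4.18%. For TE 0 were at least 2-fold higher, against 3.43%, and 0 were at least 2-fold lower, against 6.07%. At a 1.5-fold threshold, footprints of *RDH54* and *RAD52* were higher (2 of 9, against 36.3% of entries), mRNA of *SAE3*, *HOP2*, *MND1*, *RDH54* and *HED1* was higher (5 of 9, against 36.0%), and TE of *SAE3* was lower (1 of 9, against 18.0%). The shares are of 5453 entries (footprints), 5551 entries (mRNA) and 5452 entries (TE).

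**Figure D3:**
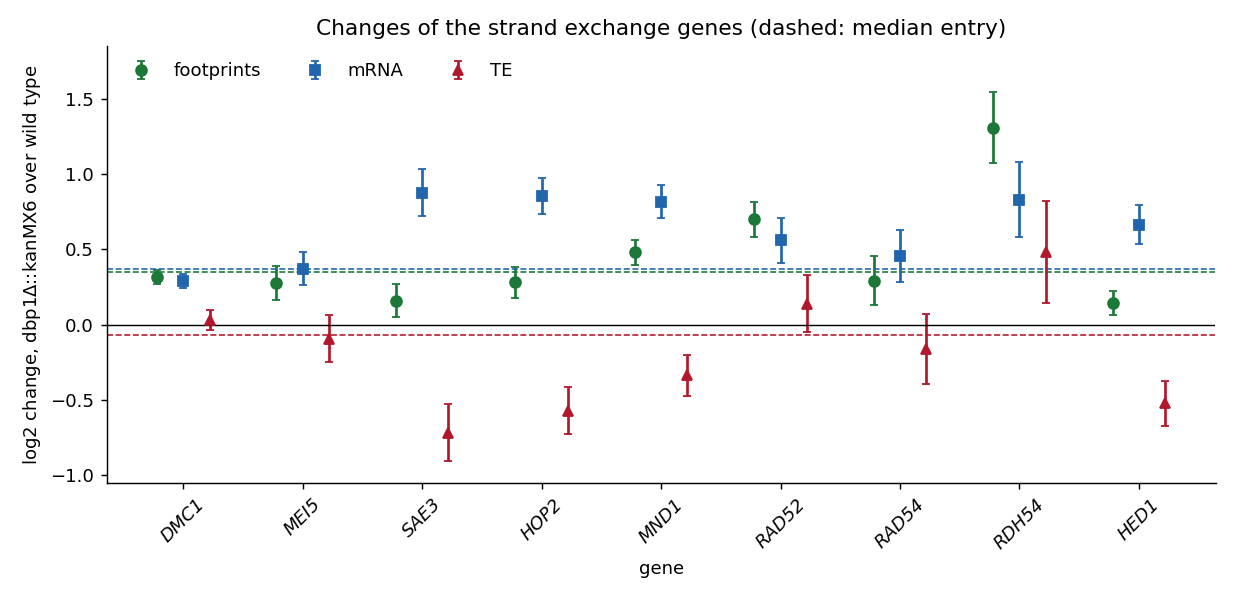
Log2 change of footprints (circles), mRNA (squares) and TE (triangles) of each gene, *dbp1Δ::kanMX6* over wild type, with 95% intervals for counting error and dashed lines at the median of all entries for each measure. mRNA lies at least 1.5-fold higher for *SAE3*, *HOP2*, *MND1*, *RDH54* and *HED1*, while only *RDH54* and *RAD52* reach this for footprints.

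The median log2 change of the 9 was 0.29 for footprints, against 0.35 for all entries, 0.66 for mRNA, against 0.37, and −0.16 for TE, against −0.07. Relative to the median entry, 3 of the 9 were above it for footprints (*MND1*, *RAD52* and *RDH54*). For mRNA 7 of the 9 were above it, *MEI5* was itself the median entry and *DMC1* was below it. The median footprint change became negative when changes were centred on the median entry, at −0.05, and the median mRNA change stayed positive, at 0.29. By role, the 6 genes made in meiosis had a median footprint change of 0.28, a median mRNA change of 0.74 and a median TE change of −0.43. In the 3 genes that also serve mitotic repair the medians were 0.70 (footprints), 0.56 (mRNA) and 0.14 (TE). Of the 6, all but *DMC1* are under 1000 bp in the gene table, whereas *RAD52*, *RAD54* and *RDH54* are longer. The parts of role and ORF length could not be told apart and were not tested.

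The other genes of the pathway were set beside them. The list held 17 genes, of which 15 passed the filter, and their median log2 changes were 0.50 (footprints), 0.70 (mRNA) and −0.02 (TE). In the mutant, *TOP3*, *RFA3* and *RMI1* had at least 2-fold higher footprints (2.59-fold, 2.28-fold and 2.04-fold), 3 of 15 against 15.1% of all entries. At least 2-fold lower footprints were found for 0 genes of the list, against 8.23% of all entries. *RFA3* encodes the smallest subunit of replication protein A, the single-strand binding complex, and its other subunits *RFA1* and *RFA2* were 1.40-fold and 1.65-fold higher. *TOP3* and *RMI1* encode partners of the helicase Sgs1, which takes apart recombination intermediates, and *SGS1* itself was 1.10-fold higher (0.983 to 1.22). The median entry was 1.27-fold higher for footprints, which *RFA1* and *RFA2* exceeded and *SGS1* did not.

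*MEK1* encodes the meiotic kinase that phosphorylates Rad54 and Hed1. Its footprints were 1156.2 RPKM in *dbp1Δ::kanMX6* cells and 578.6 RPKM in wild type, 1.998-fold higher (1.92 to 2.08). Its mRNA was 575.9 RPKM in the mutant and 463.8 RPKM in wild type, 1.24-fold higher (1.17 to 1.32). *MEK1* TE was 1.61-fold higher (1.50 to 1.73), the largest TE increase of the list and opposite in direction to that of *HED1*. *RAD55* and *RAD57* encode the subunits of a recombination mediator. Their footprints were 10.8 and 39.5 RPKM in the mutant and 4.6 and 26.1 RPKM in wild type, below those of *RAD54* in both genotypes. *RAD57* mRNA was 86.3 RPKM in the mutant, where *RAD54* had 83.0 RPKM, and 37.3 RPKM in wild type, where *RAD54* had 60.6 RPKM. mRNA was at least 2-fold higher for *RMI1*, *RAD57*, *SHU2* and *SHU1* (4 of 15, against 16.6% of all entries). The last pair belongs to the Shu complex, and *SHU1* rests on an inferred 10 mRNA reads in wild type. The other subunits of that complex, *CSM2* and *PSY3*, did not reach 2-fold for mRNA, at 1.90-fold (1.38 to 2.67) and 1.38-fold (1.08 to 1.78). *RAD55* and *MPH1* had a mean under 10 RPKM and were left out of the counts.

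Genes that act before, beside and after strand exchange had median TE changes closer to 0 than those of *SAE3*, *HOP2*, *MND1* and *HED1*. Median log2 changes were 0.42 (footprints), 0.57 (mRNA) and −0.02 (TE) in 11 genes of double-strand break formation. They were 0.61, 0.57 and −0.04 in 7 genes of the synaptonemal complex and chromosome axis, and 0.50, 0.63 and −0.08 in 11 crossover genes. The extremes of TE were ratios of 0.579 for *ECM11*, a synaptonemal complex component, and 1.58 for *SAE2*, which helps to process breaks. Of these 29 genes, 22 exceeded the footprint change of the median entry and 26 its mRNA change. TE was at least 1.5-fold lower for 1 of the 29, *ECM11*, against 18.0% of all entries. No test of the difference between the 9 genes and these lists was made, since the design holds 1 library per genotype.

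**Figure D4:**
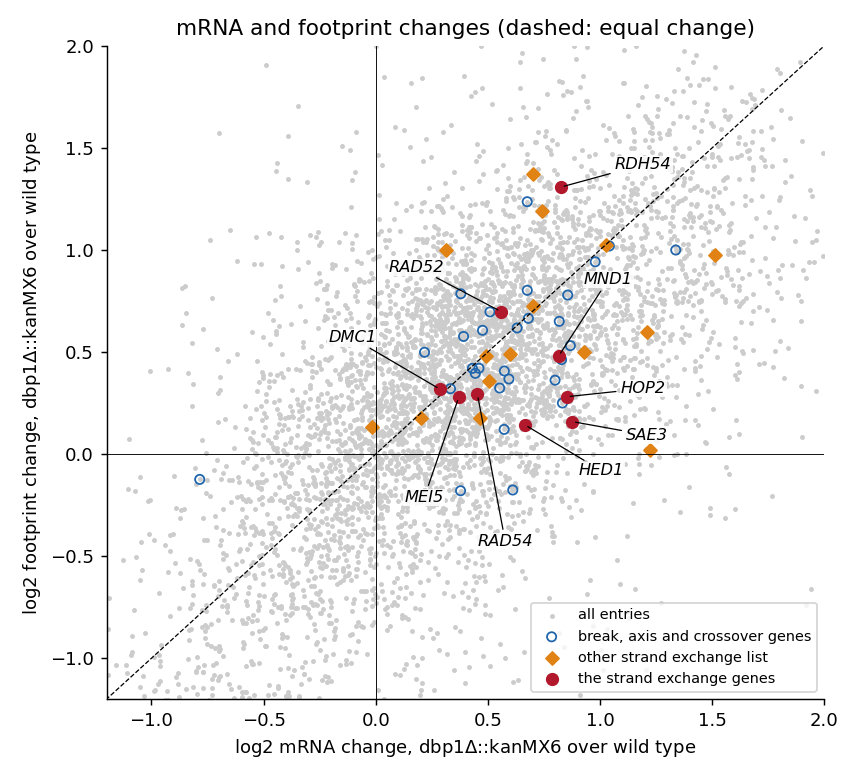
Log2 mRNA change (x axis) against log2 footprint change (y axis), *dbp1Δ::kanMX6* over wild type, for the strand exchange genes (red), the other pathway genes (orange), break, axis and crossover genes (blue) and 5452 entries (grey), of which 466 fall beyond the axes. *SAE3*, *HOP2*, *HED1* and *MND1* lie below the line of equal change and *RDH54* above it.

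Subunits of one complex were compared per length within each library. The ratio of *MEI5* to *SAE3* footprints was 0.511 (0.472 to 0.552) in *dbp1Δ::kanMX6* cells and 0.470 (0.436 to 0.507) in wild type, so *SAE3* had 1.96-fold and 2.13-fold the footprints of its partner. At the mRNA level the same ratio was 0.841 (0.791 to 0.894) in the mutant and 1.19 (1.06 to 1.34) in wild type. The footprint ratio thus differed between genotypes by 1.09-fold (0.975 to 1.21), within counting error, while the mRNA ratio of the mutant was 0.705 of that of wild type (0.619 to 0.802).

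The ratio of *HOP2* to *MND1* was compared in the same way. For footprints it was 0.589 (0.553 to 0.629) in *dbp1Δ::kanMX6* cells and 0.677 (0.634 to 0.722) in wild type, and the mutant ratio was 0.871 of the wild-type one (0.795 to 0.955). For mRNA it was 0.788 (0.749 to 0.828) in the mutant and 0.768 (0.696 to 0.848) in wild type, within counting error of each other. The mutant mRNA ratio was 1.02 of the wild-type one (0.917 to 1.14), an interval that overlaps that for footprints. In all 4 libraries *MND1* exceeded *HOP2*.

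The regulator *HED1* was set against *DMC1*. *HED1* footprints were 0.674 of those of *DMC1* in *dbp1Δ::kanMX6* cells (0.644 to 0.705) and 0.760 in wild type (0.728 to 0.794). Its mRNA was 0.377 of that of *DMC1* in the mutant (0.360 to 0.394) and 0.290 in wild type (0.267 to 0.315), so *HED1* was closer to *DMC1* in footprints than in mRNA in both genotypes.

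*RDH54* and *RAD54* encode related translocases with partly shared roles, Rdh54 acting mainly with Dmc1 and between homologs. The ratio of *RDH54* to *RAD54* footprints was 0.652 (0.577 to 0.736) in *dbp1Δ::kanMX6* cells and 0.323 (0.277 to 0.376) in wild type, a 2.02-fold difference (1.66 to 2.46). The mRNA ratio was 0.570 (0.517 to 0.628) in the mutant and 0.441 (0.367 to 0.528) in wild type, a 1.29-fold difference (1.05 to 1.59). *RDH54* was thus closer in level to *RAD54* in the mutant than in wild type in both assays.

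**Figure D5:**
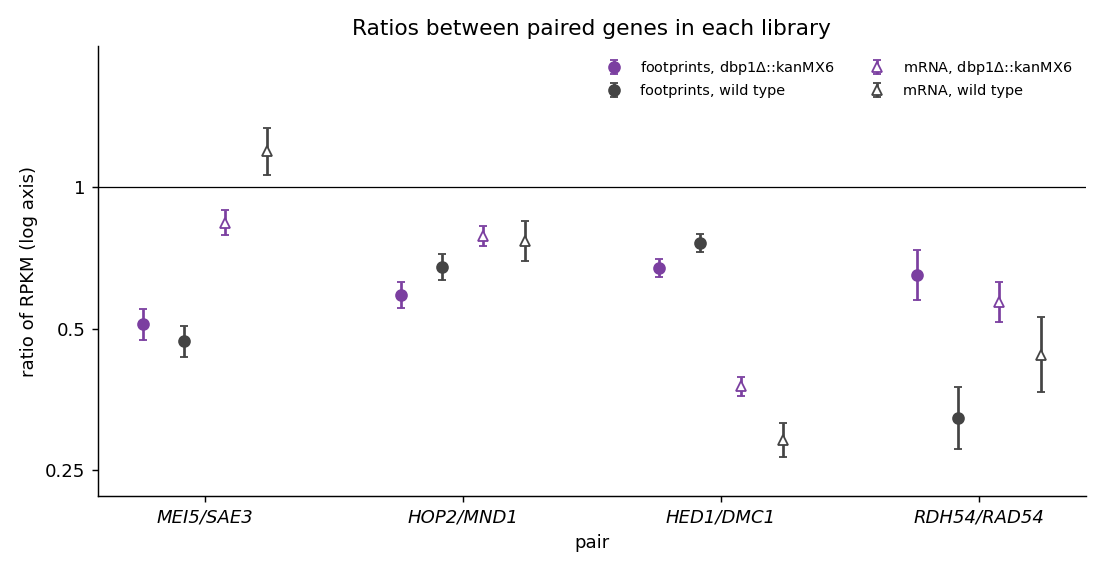
Ratio of RPKM within 4 pairs of genes on a log axis, for footprints (filled circles) and mRNA (open triangles) in *dbp1Δ::kanMX6* (purple) and wild-type cells (dark grey), with 95% intervals for counting error. *MEI5*/*SAE3* differs between genotypes for mRNA (0.841 in the mutant and 1.19 in wild type) but not beyond counting error for footprints, and *RDH54*/*RAD54* differs most for footprints (0.652 in the mutant and 0.323 in wild type).

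By distance over the log2 RPKM of the 4 libraries, the 5 entries most like *DMC1* among 5777 above 0 throughout were *PCK1* (distance 0.47), *IME1* (0.55), *IME2* (0.56), *CIT1* (0.63) and *MRA1* (0.73). *IME1* and *IME2* encode the master transcriptional activator and the kinase of meiotic entry, *PCK1* a gluconeogenic enzyme and *CIT1* mitochondrial citrate synthase. The nearest of the 9 was *HED1*, ranked 99 at a distance of 2.38, followed by *SAE3* at 2.70 and *MND1* at 2.94. *RDH54* was the farthest, at 12.1. The measure compares levels in 4 libraries, and says nothing of other conditions.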

How the data were processed

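The deposited values are RPKM, which the authors made by mapping reads to the SK1 genome, counting them per ORF and scaling to ORF length and library size. The submitters' processing notes name CASAVA, bcl2fastq 2.17 and Bowtie2. Which annotation was used, whether strand was considered and how multiply matching reads were counted are not given in the sources used here. Values are listed to 1 decimal place.

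The members and lists were chosen with earlier results of these data known. Libraries were grouped by title. Fold changes were ratios of RPKM, *dbp1Δ::kanMX6* over wild type, with a pseudocount of 0, over entries averaging 10 RPKM or more across the 4 libraries. Reads were inferred from R64 gene spans (5771 entries matched) as the depth that brought values under 20 RPKM of ORFs under 500 bp closest to whole reads, which 63.1% to 67.5% of values then met within their rounding, against 6.98% to 14.8% by chance. For spans that are not a multiple of 3, as those of genes with introns often are, 3 of 18 values did so under 1000 bp, so the reads of *DMC1*, *SAE3*, *HOP2* and *MND1* may be overstated and their intervals too narrow. Intervals were exact conditional (Clopper-Pearson) for footprint and mRNA folds, and normal on the log scale for TE and for ratios between genes. They cover counting error alone, and reads counted without molecular identifiers may repeat a molecule. The code was tested on simulated data with Python 3.11.15, numpy 2.4.6 and scipy 1.17.1. Genes named were all 9, the listed pathway genes (1 of them is not reported here), the extremes of the other lists and the 5 entries nearest to *DMC1*. The planned search of promoters for motifs was not run.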

Additional observations from a re-analysis of the deposited data

How the results depend on the processing

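No paired analysis was possible because each genotype and assay has 1 library, and for the same reason no replicate could be left out. Scaling mattered most. The median footprint change of the 9 genes, 0.29 on the log2 scale, was −0.054 when centred on the median entry and −0.056 with trimmed-mean scaling, and 3 genes were then above 0 under either, with 0 at least 2-fold higher. The median mRNA change, 0.66, was 0.29 after centring and 0.30 with trimmed-mean scaling. Rescaling without the 50 highest and the mitochondrially encoded entries moved footprint changes by 0.04 and mRNA changes by 0.12 on the log2 scale. The count of genes with at least 2-fold higher footprints was 0 at a mean of at least 50 RPKM, which removes *RDH54*, and 0 among the 6 genes made in meiosis, whose median TE change was −0.43 with 1 gene above 0. At a 1.5-fold threshold the counts were 2 for higher footprints, 5 for higher mRNA and 1 for lower TE. A pseudocount of 1 RPKM, no filter, and leaving out *HED1* (an alternative added after the data were seen) changed none of the 2-fold counts or the counts above 0 by over 1.5 times. Without *HED1* the medians were 0.31 (footprints), 0.69 (mRNA) and −0.13 (TE). The ratios between paired genes were within their intervals with that pseudocount. The planned ratio per spliced ORF length was not run, since the gene table used gives spans. Depth limits *RDH54* most, at an inferred 171 mRNA reads in wild type.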
